A study of Mus musculus with 4 samples.

Results

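The 10 genes described here encode the 4 mouse Notch receptors (Notch1, Notch2, Notch3 and Notch4), 3 of their ligands (Jag1, Jag2 and Dll4) and 3 genes that Notch signalling is known to switch on (Hes1, Heyl and Nrarp). They were chosen by name, and every array probe whose RefSeq accession belongs to them was used: 12 probes, of 39417 with a value on all arrays and of 20881 genes with a symbol in all. Of the 10 genes, 7 were bright enough to test, and Dll4, Heyl and Nrarp were not.

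Gene expression was measured in cardiomyocytes derived from CGR8, a mouse embryonic stem cell line, on 1-colour Agilent arrays. The siErbB4 group holds 2 samples transfected with a small interfering RNA against Erbb4, and the siScr group holds 2 samples transfected with a scrambled RNA. In both groups the transfection lasted 48 hours with the agent Pepmute, in low-glucose DMEM with 2% serum, and the labels give the same cell line for both. The culture protocol names 2 incubation times and does not assign them to samples. Each sample had its own array, numbered replicate 1 or 2 in its title, and nothing says that replicates were separate cultures, so the spread that p-values measure is that between these samples and may be technical. The labels set the groups by title and transfection field, but other fields go against them: both siErbB4 samples carry the scrambled RNA in their description, and for siErbB4 replicate 2 another target stands in the source field. A stem cell-derived culture is a mixture of cell types, and in such bulk RNA fewer cells of a type and less RNA per cell cannot be told apart.

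Notch receptors sit in the membrane of one cell and bind Jagged or Delta-like ligands on its neighbour. Binding exposes the receptor to cleavage by an ADAM protease and then by gamma-secretase, and the freed intracellular part joins the DNA-binding protein RBPJ and Mastermind-like coactivators to turn on genes of the Hes and Hey families. ERBB4, the target of the knockdown, is a receptor tyrosine kinase that can be cleaved by the same kinds of enzyme. In the developing heart and its vessels, NOTCH1, NOTCH4 and DLL4 are best known from endothelium, NOTCH3 from smooth muscle cells and pericytes, and JAG1 from both.

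The promoters of Jag1 and Notch3, the tested members that differed most between arrays, and of Hey2, a pathway gene that moved the other way, are shown 5′ to 3′ on the strand of the gene. Each is the stretch of 250 bases before the transcription start, from RefSeq on assembly GRCm38.p6. Capitals mark matches, on either strand, to the RBPJ core TGGGAA or the longer GTGGGAA, the GC box GGGCGG and the E-box CANNTG, which bHLH proteins such as those of the Hes and Hey families can bind.
Jag1 promoter, GRCm38.p6 chr2:137116521-137116770, minus strand: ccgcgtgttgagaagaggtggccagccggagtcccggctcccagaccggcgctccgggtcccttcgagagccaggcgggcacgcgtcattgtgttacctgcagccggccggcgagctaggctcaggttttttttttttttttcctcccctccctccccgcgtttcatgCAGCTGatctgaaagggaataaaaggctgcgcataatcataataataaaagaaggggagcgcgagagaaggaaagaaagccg
Notch3 promoter, GRCm38.p6 chr17:32166891-32167140, minus strand: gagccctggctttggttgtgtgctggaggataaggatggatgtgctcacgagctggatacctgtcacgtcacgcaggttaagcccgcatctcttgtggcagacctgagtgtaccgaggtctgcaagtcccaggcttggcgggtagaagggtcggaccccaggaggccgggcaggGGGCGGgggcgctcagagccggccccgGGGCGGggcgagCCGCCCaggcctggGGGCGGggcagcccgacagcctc
Hey2 promoter, GRCm38.p6 chr10:30842784-30843033, minus strand: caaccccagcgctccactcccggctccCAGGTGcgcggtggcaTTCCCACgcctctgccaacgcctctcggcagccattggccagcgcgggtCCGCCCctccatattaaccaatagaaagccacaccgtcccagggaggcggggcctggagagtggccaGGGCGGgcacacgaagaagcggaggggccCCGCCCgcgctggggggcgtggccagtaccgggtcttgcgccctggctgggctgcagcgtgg
The Jag1 window held 1 E-box and the Notch3 window 4 GC boxes, and neither held the RBPJ core. The Hey2 window held 1 RBPJ core as part of the longer GTGGGAA, which reads TTCCCAC here because it lies on the other strand, beside 1 E-box and 3 GC boxes. Across 32851 RefSeq promoter windows of this length, 21.59% held TGGGAA, 5.42% the longer GTGGGAA, which contains it, 66.22% an E-box and 32.74% a GC box. Of the 8 members with a window, 0 held TGGGAA, 3 an E-box and 6 a GC box. Hes1 and Heyl had no window to search. A match is a description of letters and does not show binding, and no match says only that these letters are not in this window.

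The arrays shared 1 slide and 1 scan. Across them the 75th percentile of processed signals was 878 to 989 and the share of probes well above background was 64.8% to 68.5%, and the small number of arrays limits the precision. The targeted gene did not check the labels: the Erbb4 probe read 15.0 and 2.83 in siErbB4 replicates 2 and 1, against 11.9 and 9.02 in siScr replicates 2 and 1, and only on siErbB4 replicate 2 did it clear the background threshold. All 13 cardiomyocyte markers passed the filter on dim probes. Values below are log2 levels, that is, log2 of the processed signal minus the 75th percentile of the array, unless they are called signals, and differences are differences of log2 levels. A level is not compared between genes, because each probe has its own response. A gene or unnamed feature is said to be called when its p from limma, adjusted by the Benjamini-Hochberg method over all 20726 features tested, was below 0.05.

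The receptors Notch1, Notch2, Notch3 and Notch4 each had a probe well above background on all 4 arrays. Notch1, which acts in endocardium and in many progenitor cells, had signals of 85.5 and 108 in siErbB4 replicates 2 and 1, against 83.2 and 106 in siScr replicates 2 and 1. Notch2 had 774 and 940 in siErbB4 replicates 2 and 1, against 627 and 739 in siScr replicates 2 and 1. The groups therefore did not overlap for Notch2 in log2 level, while for Notch1 they did. A second probe with the same accession was not well above background on any array for Notch1 (signals of 2.17 to 2.81) and for Notch2 (4.79 to 13.9), so these probes give no second measure of either gene.

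Notch3, the receptor of smooth muscle cells and pericytes, had signals of 837 and 1211 in siErbB4 replicates 2 and 1, against 703 and 1630 in siScr replicates 2 and 1. Notch4, best known from endothelial cells, had 125 and 92.3 in siErbB4 replicates 2 and 1, against 75.5 and 121 in siScr replicates 2 and 1. For Notch3 both replicate 2 arrays were the lower ones, whichever RNA had been transfected. For Notch4 the replicate 2 array was the higher of its group in siErbB4 and the lower of its group in siScr.

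Among the ligands, Jag1, needed in the developing outflow tract and vessel wall, had signals of 348 and 809 in siErbB4 replicates 2 and 1, against 318 and 780 in siScr replicates 2 and 1. Jag2, the second Jagged ligand, had 180 and 204 in siErbB4 replicates 2 and 1, against 148 and 178 in siScr replicates 2 and 1. Jag1 thus split by replicate number, and Jag2 was higher in log2 level on both siErbB4 arrays than on both siScr arrays. Dll4, the Delta-like ligand of arterial endothelium, had signals of 2.54 and 8.04 in siErbB4 replicates 2 and 1, against 8.63 and 7.03 in siScr replicates 2 and 1, and was not well above background on any array.

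Of the target genes, Hes1, a transcriptional repressor that is also fed by other pathways, had signals of 412 and 456 in siErbB4 replicates 2 and 1, against 449 and 373 in siScr replicates 2 and 1. Heyl, a repressor of the Hey family, had 11.9 and 16.1 in siErbB4 replicates 2 and 1, against 10.8 and 9.11 in siScr replicates 2 and 1, and was well above background only on siErbB4 replicate 1. Nrarp, a small ankyrin repeat protein that feeds back on the Notch complex, had 10.8 and 4.01 in siErbB4 replicates 2 and 1, against 2.93 and 2.38 in siScr replicates 2 and 1. Nrarp was not well above background on any array, so no level and no fold is read from it. Hes1 is thus the target among the members that could be tested.

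**Figure D1:**
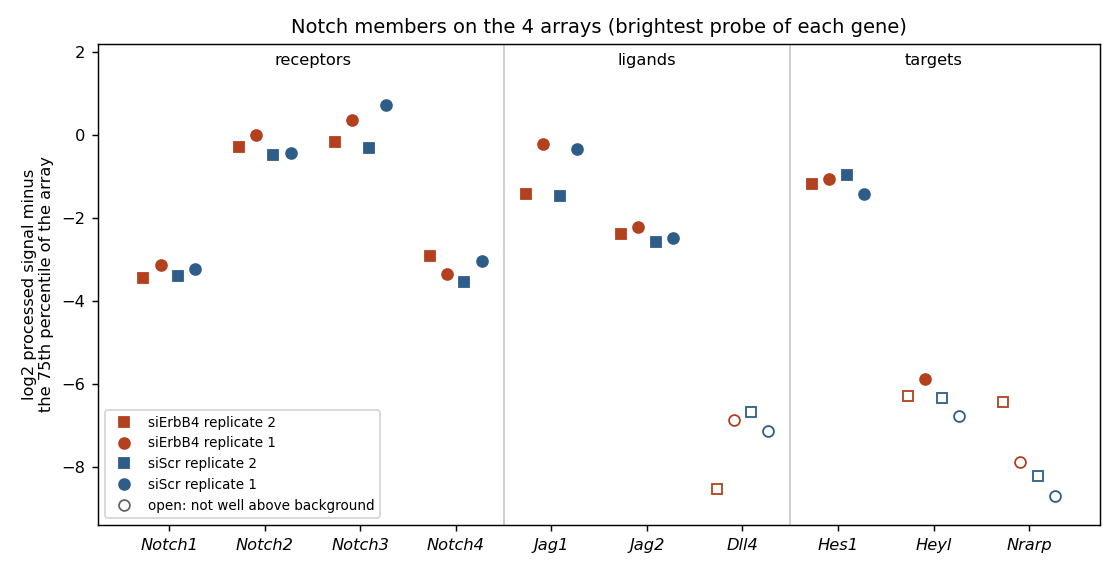
Log2 level (vertical axis, log2 processed signal minus the 75th percentile of the array) of the brightest probe of each member on the 4 arrays, with siErbB4 left of siScr; circles are replicate 1, squares replicate 2, and open symbols were not well above background. Jag1 and Notch3 are lower on both replicate 2 arrays, and Dll4, Heyl and Nrarp lie near background.

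The first comparison asks which genes differ after transfection against Erbb4. No Notch gene was called. By the limma adjusted p, 0 of 7 tested members and 0% of all features were called, and 365 features (1.76%) had an unadjusted limma p below 0.05, with 0 members among them. The difference (siErbB4 minus siScr) was positive for 6 of the 7, beside 9773 of all 20726 features, with a median of 0.08 beside -0.01 over all features. The groups did not overlap for 2 of the 7 members, Notch2 and Jag2, beside 29.0% of all features.

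Notch2 averaged -0.14 ± 0.19 in siErbB4 arrays and -0.45 ± 0.05 in siScr arrays (log2 level, SD, n = 2 each). The difference was 0.31 (SE 0.16, 95% interval -0.13 to 0.75), and its limma adjusted p was 1.00. Jag2 averaged -2.29 ± 0.12 in siErbB4 arrays and -2.52 ± 0.06 in siScr arrays (log2 level, SD, n = 2 each). Its difference was 0.23 (SE 0.14, 95% interval -0.17 to 0.62), with a limma adjusted p of 1.00. Both intervals include 0, so the higher levels in siErbB4 are not separated from the spread between arrays.

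The other 5 tested members had differences close to 0 with intervals of unequal width. Notch1 gave 0.02 (SE 0.18, 95% interval -0.48 to 0.51) and Hes1 0.07 (SE 0.21, 95% interval -0.50 to 0.64). Notch4 gave 0.15 (SE 0.27, 95% interval -0.59 to 0.89). For Notch3, at -0.10 (SE 0.43), and Jag1, at 0.08 (SE 0.59), the intervals ran from -1.28 to 1.08 and from -1.56 to 1.71. The fit takes no account of the replicate number, by which the arrays of each group lie far apart for those genes. Between arrays of the same number, the Jag1 difference was 0.04 for replicate 2 and 0.12 for replicate 1, and the Notch3 difference was 0.16 for replicate 2 and -0.36 for replicate 1. Leaving out 1 array turned the sign of the difference for Notch1, Notch3, Notch4, Jag1 and Hes1, from -0.53 without siErbB4 replicate 1 to 0.68 without siErbB4 replicate 2 in the case of Jag1, while Notch2 and Jag2 stayed positive without each of the 4 arrays. Without siErbB4 replicate 1 the Notch2 difference was 0.18 and the Jag2 difference 0.14, and with normexp background correction the Jag2 difference was 0.09.

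Only siErbB4 replicate 1 showed Heyl well above background. Its difference was 0.46 (SE 0.27) in the fit of all features without the filter and -0.17 with normexp background correction, so no direction or fold is read from it. Dll4 and Nrarp were at background in both groups and have no fold.

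In the same comparison the other genes of the pathway gave no call either. Of 65 listed genes that encode other Notch ligands or act in ligand handling, receptor glycosylation, cleavage, turnover, the nuclear complex, corepression or as targets, 59 were tested, and limma called 0, with 0 at an unadjusted p below 0.05. Their median difference was 0.0022, with 30 positive and 29 negative, and the groups did not overlap for 17 of the 59, beside 29.0% of all features. The lowest limma p-values belonged to Myc, a growth regulator and Notch target in some tissues, at 0.39 (SE 0.15), Ncstn, which encodes the gamma-secretase subunit nicastrin, at -0.57 (SE 0.26), Furin, the protease that matures Notch receptors, at -0.29 (SE 0.14), and the microfibril gene Mfap5 at -0.48 (SE 0.29). Ncstn was -0.24 without siScr replicate 1, -0.89 without siScr replicate 2 and -0.33 with normexp. Mfap5 was -0.25 without siErbB4 replicate 2, -0.19 without siScr replicate 1 and -0.77 without siScr replicate 2. Rbpj itself had a log2 level of 0.84 and 1.11 in siErbB4 replicates 2 and 1, against 0.73 and 0.70 in siScr replicates 2 and 1, and a difference of 0.26 (SE 0.16).

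Beside these values, markers of undifferentiated stem cells were higher in the siErbB4 arrays at 9 of 10 listed genes, with a median difference of 0.49, and 0 were called by limma. The groups did not overlap for 7 of the 10, beside 29.0% of all features. Their summed level was 31.0 and 40.9 times the 75th percentile in siErbB4 replicates 2 and 1, against 27.6 and 26.0 in siScr replicates 2 and 1, with no marker of the list below background on all arrays. Such a sum adds unlogged signals, so it mostly follows the brightest probes of a list, here Dppa5a, and Col1a1 among fibroblast markers. Dppa5a had log2 levels of 4.43 and 4.87 in siErbB4 replicates 2 and 1, against 4.22 and 4.22 in siScr replicates 2 and 1. Fibroblast markers were lower at 9 of 10, with a median of -0.45, and 0 were called by limma. The groups did not overlap for 1 of these 10 fibroblast markers. Their summed level was 7.08 and 22.5 in siErbB4 replicates 2 and 1, against 9.09 and 38.9 in siScr replicates 2 and 1. Lower in siErbB4, too, were 10 of 13 cardiomyocyte, 8 of 12 endothelial and 7 of 10 smooth muscle and pericyte markers. So were 4 of 5 neural and 4 of 4 macrophage markers, while 5 of 7 endoderm and hepatic markers were higher. Their medians, in the same order, were -0.07, -0.13, -0.19, -0.26, -0.30 and 0.14, beside -0.01 over all features, and limma called 0. The part of these cell types in the Notch values was not tested.

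**Figure D2:**
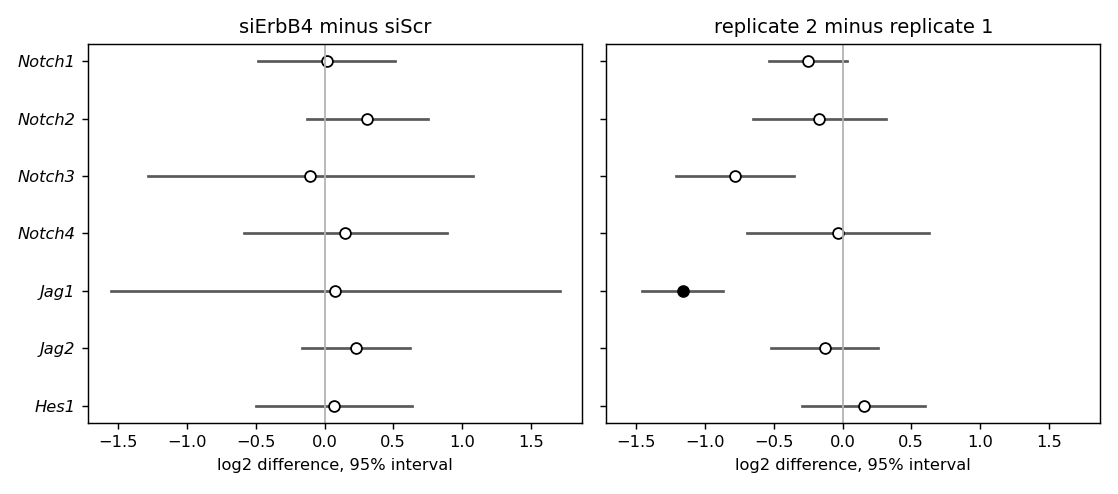
Log2 difference with its 95% interval (horizontal axis) for the 7 tested members, as siErbB4 minus siScr (left) and as replicate 2 minus replicate 1 (right); the filled point is called by limma and open points are not. All intervals on the left include 0, and on the right those of Jag1 and Notch3 lie below it.

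The second comparison sets the 2 replicate 2 arrays against the 2 replicate 1 arrays, each pair holding 1 siErbB4 and 1 siScr array. Its SE and p-values thus rest on the spread between siErbB4 and siScr arrays of the same number, not between repeats of a condition. What the number stands for is not stated in the labels. Jag1 was the called member: it was 2.24-fold lower in the replicate 2 arrays. Limma called 5.23% of all 20726 features here (1084, of which 600 were higher and 484 lower in replicate 2), and 1 of the 7 tested members. An unadjusted limma p below 0.05 was found for 23.0% of all features. The difference was negative for 6 of the 7, beside 47.0% of all features, with a median of -0.17 beside 0.02 over all features. The replicate numbers did not overlap for 3 of the 7, Notch1, Notch3 and Jag1, beside 55.4% of all features. On the slide, replicate 2 arrays held positions 1 and 2 and replicate 1 arrays positions 3 and 4, so position and replicate number cannot be told apart.

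Jag1 had log2 levels of -1.43 in siErbB4 replicate 2 and -1.46 in siScr replicate 2, against -0.22 in siErbB4 replicate 1 and -0.34 in siScr replicate 1. The arrays of one number agree closely with each other, and the numbers do not overlap. The difference (replicate 2 minus replicate 1) was -1.16 (SE 0.11, 95% interval -1.46 to -0.87; limma adjusted p 0.0214), and it was -1.21 within siErbB4 and -1.12 within siScr. The limma adjusted p was 0.0789 without siErbB4 replicate 2, 0.0510 without siScr replicate 1 and 0.0860 without siScr replicate 2, with differences of -1.23 to -1.10 over all 4 arrays left out in turn. With no filter on dim probes, where 0 features were called and 4649 had an unadjusted limma p below 0.05, its adjusted p was 0.122 (0.00229 to 0.122 over the alternatives).

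Notch3 had log2 levels of -0.16 in siErbB4 replicate 2 and -0.32 in siScr replicate 2, against 0.36 in siErbB4 replicate 1 and 0.72 in siScr replicate 1. It was lower in replicate 2 in both groups, by 0.53 within siErbB4 and by 1.04 within siScr. Its difference was -0.78 (SE 0.16, 95% interval -1.22 to -0.35) and it was not called, with a limma adjusted p of 0.0728. It was called with normexp background correction, at a limma adjusted p of 0.0237, and without siErbB4 replicate 1, at 0.0454 (0.0237 to 0.306 over the alternatives).

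The remaining members were closer together. Notch1 was lower in replicate 2 in both groups, by 0.32 within siErbB4 and by 0.18 within siScr, with a difference of -0.25 (SE 0.11, limma adjusted p 0.261). Notch2 gave -0.17 (SE 0.18) and Jag2 -0.13 (SE 0.15), both lower in replicate 2 within each group and neither called. Hes1 gave 0.15 (SE 0.17) and Notch4 -0.03 (SE 0.25), and for these the difference within siErbB4 had the opposite sign to that within siScr.

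The rest of the pathway was lower in replicate 2 at 44 of 59 tested genes, beside 47.0% of all features. Its median difference was -0.16 beside 0.02 over all features. The replicate numbers did not overlap for 37 of the 59, beside 55.4% of all features. Limma called 7 of the 59, 6 lower and 1 higher, beside 5.23% of all features, of which 2.34% were called lower and 2.89% higher. By role, 1 of 5 tested ligands was called, 0 of 4 genes of ligand handling, 0 of 4 of receptor glycosylation, 1 of 8 of receptor cleavage, 0 of 8 of the nuclear complex, 0 of 10 corepressors, 1 of 9 of receptor turnover and 4 of 11 targets. The 0 genes called in the nuclear complex include Rbpj, at -0.13 (SE 0.17), and Maml1, at -0.15 (SE 0.14). In the fit without the filter on dim probes, limma called 0 of these 7 and 0 of all 32388 features.

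The called genes that were lower in replicate 2 lie at several steps of the pathway. Dlk1, a Delta-like protein without the receptor-binding domain of the classical ligands, had log2 levels of -2.65 in siErbB4 replicate 2 and -2.96 in siScr replicate 2, against -0.64 in siErbB4 replicate 1 and 0.08 in siScr replicate 1. Its difference was -2.52 (SE 0.28, limma adjusted p 0.0252). Psen2, which encodes a catalytic subunit of gamma-secretase, gave -0.67 (SE 0.11, limma adjusted p 0.0463), and Numbl, a relative of the Notch inhibitor Numb, gave -0.73 (SE 0.11, limma adjusted p 0.0371).

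Among targets, Sox9, a transcription factor of valve mesenchyme and cartilage, had log2 levels of -3.67 in siErbB4 replicate 2 and -3.54 in siScr replicate 2, against -1.72 in siErbB4 replicate 1 and -1.39 in siScr replicate 1. Its difference was -2.05 (SE 0.16, limma adjusted p 0.0189). Efnb2, the ephrin of arterial endothelium, gave -1.16 (SE 0.12, limma adjusted p 0.0224), and Gata3 gave -0.89 (SE 0.12, limma adjusted p 0.0310). Each of these 3 was lower in replicate 2 in both groups.

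Hey2, a Hey family repressor known from ventricular muscle, was the called gene on the other side. It had log2 levels of -3.96 in siErbB4 replicate 2 and -4.52 in siScr replicate 2, against -5.56 in siErbB4 replicate 1 and -6.09 in siScr replicate 1. Hey2 was well above background on all 4 arrays, but its replicate 1 levels were near the dimmest that were so flagged. Its difference was 1.58 (SE 0.27, limma adjusted p 0.0494), 1.60 within siErbB4 and 1.56 within siScr. With normexp background correction it was 0.50, with a limma adjusted p of 0.0645. The limma adjusted p was 0.0572 with quantile normalization, 0.0536 for probes well above background on at least 2 of 4 arrays and 0.0503 with the mean of probes. Its relative Hey1 gave 0.24 (SE 0.15) and was not called.

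Leaving out 1 array cost most of these calls while the sign of all 8 called Notch genes, Jag1 included, stayed the same. Over these fits the differences ran from -2.89 to -2.16 for Dlk1, -2.22 to -1.88 for Sox9 and -1.24 to -1.08 for Efnb2. They ran from -1.23 to -1.10 for Jag1, -0.97 to -0.82 for Gata3 and -0.76 to -0.70 for Numbl. Psen2 ran from -0.72 to -0.62 and Hey2 from 1.30 to 1.86. Over all features, too, fewer were called without siErbB4 replicate 2 or without either siScr array, and more without siErbB4 replicate 1.

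**Figure D3:**
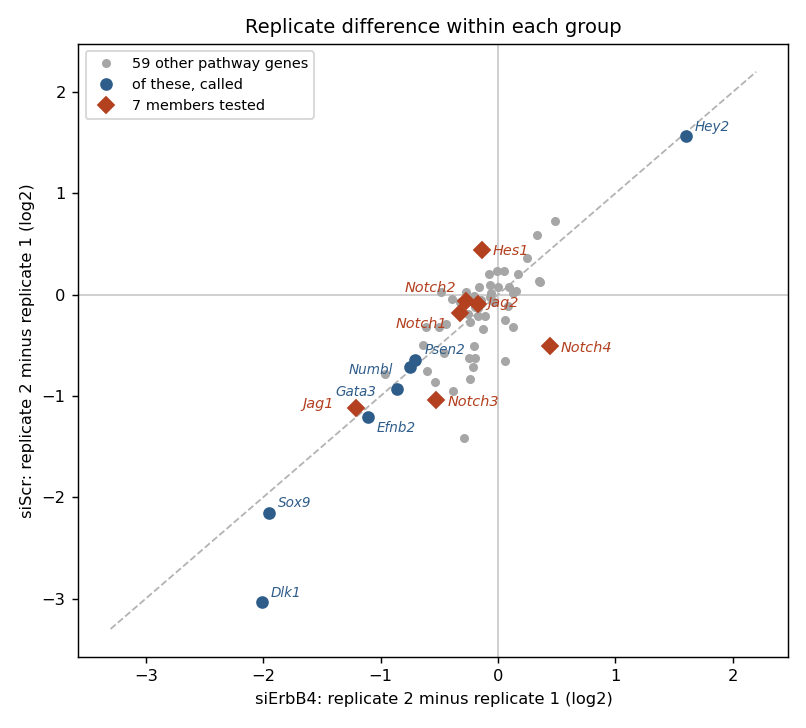
Replicate 2 minus replicate 1 (log2 difference) within siErbB4 (horizontal axis) and within siScr (vertical axis) for the 7 tested members (diamonds) and 59 other pathway genes (dots, blue where called by limma); the dashed line marks equal differences. Jag1, Efnb2, Sox9 and Hey2 lie near the line, and Notch4 and Hes1 lie where the groups have opposite signs.

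Markers of several other cell types moved with the replicate number as well, in a comparison where limma called 5.23% of all features. Those of undifferentiated stem cells did not: 5 were higher and 5 lower in replicate 2, with a median of -0.02 and 0 called by limma. Fibroblast markers were lower in replicate 2 at 8 of 10 genes, with a median difference of -1.33 and 3 called by limma (Col1a1, Postn and Pdgfra). Their summed level was 7.08 and 9.09 times the 75th percentile in replicate 2 of siErbB4 and siScr, against 22.5 and 38.9 in replicate 1 of siErbB4 and siScr, and no marker of the list was below background on all arrays. Of 10 tested smooth muscle and pericyte markers, 6 were lower and 4 higher in replicate 2, with a median of -0.09. The lower ones included the called Acta2 at -1.22 (SE 0.16) and Tagln at -1.04 (SE 0.14). The other direction held the called Abcc9, at 1.64 (SE 0.11) and 0.76 with normexp, a potassium channel subunit that heart muscle also expresses. Myh11 of the smooth muscle and pericyte list was well above background on 2 arrays, missed the filter and was not tested. Its replicate 2 minus replicate 1 difference was -1.81 within siErbB4 and -2.47 within siScr. The filter asks for both arrays of a group, so a gene bright only on the arrays of 1 replicate number misses it.

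The summed level of the smooth muscle and pericyte list was 287 and 296 times the 75th percentile in replicate 2 of siErbB4 and siScr, against 469 and 578 in replicate 1 of siErbB4 and siScr, and Kcnj8 was not well above background on any array. Cardiomyocyte markers were higher in replicate 2 at 12 of 13 genes, with a median of 0.48 and 3 called by limma (Tnni3, Ryr2 and Myl3), and their summed level was 1952 and 2069 in replicate 2 of siErbB4 and siScr, against 1529 and 1587 in replicate 1 of siErbB4 and siScr. The endoderm and hepatic list had a median of 0.59 over 7 tested genes, with Afp called higher. Of 4 tested macrophage markers 2 were higher and 2 lower, with a median of -0.06. Lyz2 was called at 3.24 (SE 0.25), while Fcer1g was at -1.74 (SE 0.52) and not called. The summed level of these 4, which mostly follows Itgam, the brightest of them, was 6.88 and 8.04 in replicate 2 of siErbB4 and siScr. In replicate 1 of siErbB4 and siScr it was 6.96 and 7.74. Of 5 tested neural markers 4 were lower, with a median of -0.22, and limma called 0. Jag1 and Notch3 thus ran in the same direction as most of the fibroblast, smooth muscle and pericyte, neural and endothelial lists. Hey2 ran in the same direction as most of the cardiomyocyte and of the endoderm and hepatic lists. The part of these cell types in the Notch values was not tested.

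Markers of endothelium, which is known to express Notch1, Notch4 and Dll4, were lower in replicate 2 at 8 of 12 tested genes of 16 listed, with a median of -0.31, and limma called 0. Their summed level was 7.71 and 8.82 times the 75th percentile in replicate 2 of siErbB4 and siScr, against 7.32 and 7.63 in replicate 1 of siErbB4 and siScr, so the sum was higher in replicate 2 while most members were lower. The sum mostly follows the brightest probes of the list, Kdr and Egfl7, so it is not a level of the list as a whole. Pecam1, Cdh5 and Kdr of this list were well above background on all 4 arrays. Tie1 and Sox18 were well above background on 1 array each and missed the filter. Emcn and Erg of the same list, and Dll4, were not well above background on any. The part of endothelial cells in the Notch values was not tested.

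**Figure D4:**
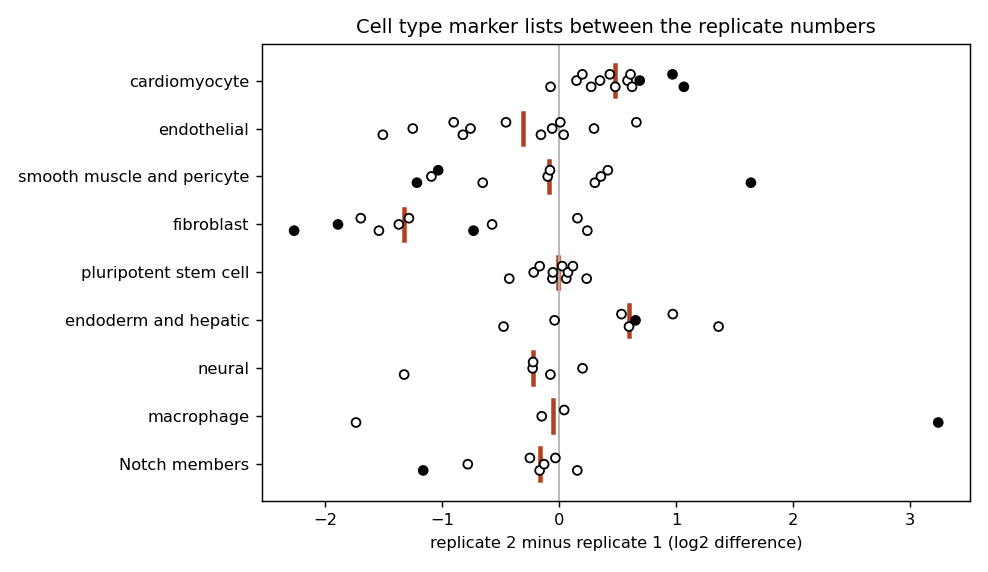
Replicate 2 minus replicate 1 (horizontal axis, log2 difference) for each tested gene of 8 cell type marker lists and for the 7 tested Notch members; filled points are called by limma, and the red bar is the median of the list. The fibroblast median is -1.33 and the cardiomyocyte median 0.48, and Jag1 is the filled point among the Notch members.

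The genes whose pattern over the 4 arrays was most like that of a member were found by the root mean square distance between mean-centred log2 levels, among 14986 named genes outside the member list, and are given as a description. For Jag1, which spanned 1.24 over the 4 arrays, they were Ust, a sulfotransferase gene, at a distance of 0.035, Efnb2 at 0.049 and Pcolce2, an enhancer of procollagen processing, at 0.049, and 24 genes lay within 0.1. For Notch3, which spanned 1.04, they were Tbc1d8 at 0.0074, the aryl hydrocarbon receptor gene Ahr at 0.010 and the carbonic anhydrase gene Car3 at 0.027, and 108 genes lay within 0.1. For Notch4, which spanned 0.63, they were Gdap10 at 0.033, Ciita at 0.040 and Mgat4a at 0.048, and 33 genes lay within 0.1. The 4 arrays share 1 slide, and a distance over so few points is no measure of shared control.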

How the data were processed

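Each of 4 samples was read on its own 1-colour array. The authors deposited Agilent Feature Extraction 10.7.1.1 files, per the file headers and the submitters' processing notes, with a processed intensity per spot (background subtracted and detrended, not scaled between arrays), the raw median spot and background intensity, and other columns of flags for background, saturation and outliers, per the file headers. The authors' deposited values are log2 and equalled the log2 processed signal minus the 75th percentile of the array (correlation 1.00, with a largest difference of 0.0029 at probes with 1 spot), so scale and direction are known and it was not centred per probe, with column medians of -3.86 and -3.83 for siErbB4 replicates 2 and 1 and -3.83 and -3.81 for siScr replicates 2 and 1.

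From the scanner files, 1377 control spots and 131 to 179 outlier-flagged spots per array were left out, 0 spots were saturated, and spots of a probe were averaged. Probes well above background (at least 0.5 of the spots) on both arrays of at least 1 group were kept, 25690 of 39417. Symbols came from RefSeq accessions without versions (assembly GRCm38.p6) for 27498 of all probes, and the rest kept their accession. The array's annotation names build mm9, so only promoter windows carry coordinates. The brightest probe stood for a gene, giving 14993 named genes and 5733 unnamed features. Members that missed the filter were fitted with all 32388 features.

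Groups, and separately replicate numbers, were compared two-sided by lmFit and eBayes of limma 3.58.1 (R 4.3.3), with 2 residual degrees of freedom. The fit was run on simulated data with noise drawn independently for each array. Such data lack the deviations that same-numbered arrays shared here, so they cannot show how the fit behaves with them. Alternatives were normexp background correction on the raw median intensities with an offset of 50, quantile normalization, other filters, the mean of probes, the deposited table, leaving out each array, and a replicate or group term. The members and gene lists were chosen with earlier results of these data known. All 10 members are named, pathway genes are named where called or, where fewer than 4 were called, by the 4 lowest p, and marker genes, Hey1, Rbpj and Maml1 were named after their values were seen. Some promoter windows and the probe and protein sequences were not used here.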

Additional observations from a re-analysis of the deposited data

Results flagged for a closer look

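Some tested members had effects of opposite sign between replicate numbers or between groups, each from 1 array against 1, and the difference between these effects was not tested. As siErbB4 minus siScr (log2 difference), Notch4 was 0.63 between the replicate 2 arrays and -0.32 between the replicate 1 arrays, and Notch3 was 0.16 between the replicate 2 arrays and -0.36 between the replicate 1 arrays. Hes1 was -0.22 between the replicate 2 arrays and 0.36 between the replicate 1 arrays, and Notch1 was -0.055 between the replicate 2 arrays and 0.085 between the replicate 1 arrays. As replicate 2 minus replicate 1, Notch4 was 0.44 within siErbB4 and -0.51 within siScr, and Hes1 was -0.14 within siErbB4 and 0.44 within siScr.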

How the results depend on the processing

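For siErbB4 minus siScr, limma called 0 features in every one of the 12 alternatives, with 177 to 1545 at an unadjusted p below 0.05. With the replicate block, 0 were called and 1545 had an unadjusted p below 0.05, and it changed no call of a member. The block took the SE of that difference to 0.12 for Jag1, against 0.59 without it, and to 0.17 for Notch3, against 0.43 without it. The labels do not say that a shared number pairs samples. The deviations of same-numbered arrays from their group means correlated at 0.679 across features. For replicate 2 minus replicate 1, 1084 features were called, 1876 with normexp, 0 with no filter on dim probes (4649 at an unadjusted p below 0.05) and 0 to 1539 with each array left out: 1539 without siErbB4 replicate 1, 73 without siErbB4 replicate 2, and 0 without siScr replicate 1 or 2 (5269 and 2684 at an unadjusted p below 0.05). An array left out leaves 1 sample in an arm, which is assumed to vary like the others.

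With normexp the siErbB4 minus siScr difference reversed for Notch1 (-0.038) and Heyl (-0.17). With 1 array left out it reversed in some cases for Notch1 (-0.15 to 0.18), Notch3 (-0.62 to 0.42), Notch4 (-0.10 to 0.41), Jag1 (-0.53 to 0.68), Dll4 (-1.62 to 0.027) and Hes1 (-0.15 to 0.29), and in none for Notch2 and Jag2. Replicate 2 minus replicate 1 reversed for Heyl with normexp (0.026) and quantile normalization (0.00095). With 1 array left out it reversed in some cases for Notch2 (-0.38 to 0.039), Notch4 (-0.35 to 0.28), Jag2 (-0.27 to 0.0035), Dll4 (-1.52 to 0.34), Hes1 (-0.026 to 0.33) and Heyl (-0.45 to 0.44), and in none for Notch1, Notch3 and Jag1. Causes were not tested. Dll4, Heyl and Nrarp lie at or near background, so their signs carry no direction.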
